A study of Mus musculus with 22 samples.

Results

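Pectin_PFOS is intestinal tissue of mice fed pectin as their only added fibre while they drank PFOS, and Inulin_PFOS is the same tissue of mice fed inulin under the same exposure. The groups were taken from the sample names, which put 4 libraries in Pectin_PFOS and 3 in Inulin_PFOS, 7 of the 22 libraries of the series. All were male C57BL/6 wild-type mice, aged 7 weeks at the start, that ate an irradiated diet for 7 weeks. The diet held 8% fibre by weight, and fat, protein and carbohydrate supplied 35%, 20% and 45% of its energy. Pectin_PFOS, Inulin_PFOS and PFOS mice drank water with PFOS, dosed at 3 µg per kg of body weight each day. The other groups used here are Pectin (n = 4) and Inulin (n = 3), which ate the same fibres without PFOS. PFOS (n = 4) and Control (n = 4) ate cellulose and were part of no contrast. They entered the gene filter, the scaling, the shared estimate of the spread and the mean of all 22 libraries used with transcript length. Exposure is read from the names, because PFOS stands in a treatment label of unexposed samples too. The gut segment is not given in the sources used here, and nothing states outright that each library is a separate animal, so the p-values measure the spread between these libraries.

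PFOS (perfluorooctanesulfonic acid) is a persistent fluorinated surfactant that binds fatty acid carrier proteins and, in rodents, can activate the fatty acid receptor PPARα. Pectin is a gel-forming polymer rich in galacturonic acid, and inulin is a chain of fructose units. Mouse enzymes digest neither, and gut bacteria ferment both to short-chain fatty acids. The intestinal wall that meets them consists of absorptive enterocytes with a brush border of digestive enzymes, secretory and immune cells, and underneath them fibroblasts, nerves and layers of smooth muscle.

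Total counts per library were 19125652 to 20261370 in Pectin_PFOS and 19350230 to 19780265 in Inulin_PFOS. Genes with at least 10 counts numbered 12919 to 14384 in Pectin_PFOS and 14222 to 14469 in Inulin_PFOS. Pectin_PFOS replicate 1 stood apart, with the fewest genes of all 22 libraries and a TMM scaling factor of 0.749, against 0.893 to 1.00 in its 3 fellow libraries and 0.897 to 0.936 in Inulin_PFOS. Mitochondrially encoded genes took 3.23% ± 0.312 of the counts in Pectin_PFOS (SD, n = 4) and 5.82% ± 1.98 in Inulin_PFOS (SD, n = 3), with no overlap (exact permutation test over 35 splits, two-sided p = 0.0571, the smallest the design allows). Levels are given as CPM, the count of a gene scaled to library size with the TMM factor, in the order of the replicate numbers 1 to 4 in Pectin_PFOS and 1 to 3 in Inulin_PFOS.

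The tissue carried markers of the ileum in every library. Fabp6, the ileal bile acid binding protein, had 5063, 2819, 3445 and 4132 CPM in Pectin_PFOS, against 3002, 3162 and 3616 CPM in Inulin_PFOS. Of 12 colon markers 4 were high enough to be tested, and Car1 had 2 counts in all Pectin_PFOS libraries together and 4 in all Inulin_PFOS libraries. None of 10 exocrine pancreas genes was high enough. Markers of position along the gut differed between libraries. Gata4, a transcription factor of the upper small intestine, had 2.44, 1.70, 52.1 and 25.1 CPM in Pectin_PFOS, against 0.736, 1.05 and 0.975 CPM in Inulin_PFOS, and Hoxb9, a gene of more distal gut, had 32.5, 33, 3.49 and 7.57 CPM in Pectin_PFOS, against 32.6, 22.7 and 29.5 CPM in Inulin_PFOS. Pectin_PFOS replicates 3 and 4 differed from the other 5 libraries in both markers, and medians without them are given for the smooth muscle, matrix, endothelial, sugar, chaperone, Paneth, stem cell, cholesterol, NRF2, proliferation and Hox lists. Of 21 genes tested in the list of Hox and gut position, 17 had a negative log2 fold change. Their median was -0.62, with 5 below and 0 above without overlap (11.4% and 8.36% of all genes). Without replicates 3 and 4 the Hox median was -0.91, further from that of all genes. Then 9 of the 21 lay below and 3 above without overlap, beside 22% and 19.3% of all genes.

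No gene passed the test between Pectin_PFOS and Inulin_PFOS, with 0 of 15763 genes (0%) under an adjusted p of 0.05 in edgeR's quasi-likelihood test with Benjamini-Hochberg adjustment, the smallest adjusted p being 0.0584 for 9 genes. At an unadjusted p under 0.05 there were 2572 genes (16.3%), 901 of them higher (5.72%) and 1671 lower (10.6%) in Pectin_PFOS. All 4 Pectin_PFOS libraries lay above all 3 Inulin_PFOS libraries for 1317 genes (8.36%) and below them for 1792 genes (11.4%). Over all genes the log2 fold change had a median of 0.02, and it was positive for 51.8% of them. The number of calls depended on the tool: DESeq2's Wald test called 129 genes higher and 423 lower, limma-voom with sample weights called 428 higher and 823 lower, and edgeR on the 7 libraries alone called 0 higher and 6 lower. Leaving out 1 library at a time gave 0 calls or the numbers 177, 10, 15 and 4 without Control replicates 1, 2, 3 and 4, 1 without Inulin replicate 3, 24 without Inulin_PFOS replicate 1, 9 without Pectin replicate 4 and 4 without Pectin_PFOS replicate 2. Since no gene passed the main test, the following gives levels and says which libraries overlapped, and no difference below is a call unless a test is named.

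The 20 genes with the smallest p hold 19 that were lower in Pectin_PFOS and 1 that was higher. None of the 20 overlapped between the groups. Asporin (Aspn), a small leucine-rich proteoglycan of the matrix, had 3.82, 6.79, 4.90 and 4.02 CPM in Pectin_PFOS, against 17.5, 21.6 and 20.5 CPM in Inulin_PFOS, a log2 fold change of -2.02 (SE 0.38) with adjusted p = 0.0584. Dermatopontin (Dpt), another matrix protein, had 17.3, 33.4, 35.9 and 23.4 CPM in Pectin_PFOS and 53.8, 104 and 112 CPM in Inulin_PFOS, a log2 fold change of -1.71 (SE 0.32). For both genes every Pectin_PFOS library was below every Inulin_PFOS library. Twsg1, a secreted protein that binds BMP ligands, had 21.1, 24.7, 22.6 and 23.4 CPM in Pectin_PFOS and 57, 46.3 and 44.3 CPM in Inulin_PFOS, which gives -1.10 (SE 0.22) on the log2 scale. Sspn (sarcospan, of the dystrophin complex of muscle), Sh3bgr, Angptl2 and C1qtnf3 (secreted proteins in the last 2 cases) had log2 fold changes of -1.63, -1.60, -1.48 and -2.49. On the 7 libraries alone, Aspn, Twsg1, Sspn, Sh3bgr, Tmem256 and Ifi27l2a fell in Pectin_PFOS with an adjusted p of 0.0482 each.

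Both cyclooxygenases, the enzymes that begin prostaglandin synthesis, were among those 20 genes. Ptgs2, the inducible form, had 0.198, 1.17, 1.24 and 1.67 CPM in Pectin_PFOS and 2.83, 12.1 and 7.59 CPM in Inulin_PFOS, a log2 fold change of -2.79 (SE 0.52) with adjusted p = 0.0584. Ptgs1, the constitutive form, had 8.10, 13.3, 16.2 and 14.2 CPM in Pectin_PFOS and 21.4, 26.3 and 29.1 CPM in Inulin_PFOS, a log2 fold change of -0.98 (SE 0.20) with adjusted p = 0.0731. Neither gene overlapped between the groups, and replicate 1 was the lowest Pectin_PFOS library for both. The remaining lower genes of the 20 were Znhit3, Tmem256, Tmem47, Rpph1 (the RNA of ribonuclease P), Acsl6 (a long-chain acyl-CoA synthetase), Clip4, Myeov2, St6galnac6 (a sialyltransferase), Plac9a and Evc (a protein of the cilium), with log2 fold changes between -2.77 and -1.25. Plac9a shares sequence with its copy Plac9b, so the division of reads between them is uncertain. The gene 4933404O12Rik was higher, with 18.8, 11.2, 24 and 24.2 CPM in Pectin_PFOS and 6.63, 9.66 and 6.61 CPM in Inulin_PFOS, a log2 fold change of 1.36 (SE 0.28).

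Smooth muscle genes were lower in Pectin_PFOS throughout. Of the 13 genes of the contractile apparatus, all 13 were tested, 0 were called, and all 13 had every Pectin_PFOS library below every Inulin_PFOS library (background 11.4%), with a median log2 fold change of -1.65 beside 0.02 for all genes. Their summed level was 1240.0, 3179.8, 2383 and 2729.9 CPM in Pectin_PFOS and 4568, 12124 and 5616 CPM in Inulin_PFOS. Myh11, the smooth muscle myosin heavy chain, had 191, 696, 469 and 666 CPM in Pectin_PFOS and 1158, 2123 and 1152 CPM in Inulin_PFOS, which is a log2 fold change of -1.55 (SE 0.48). Acta2, smooth muscle actin, had 172, 406, 315 and 326 CPM in Pectin_PFOS and 544, 1825 and 884 CPM in Inulin_PFOS, with a log2 fold change of -1.83 (SE 0.49). In each of these genes Inulin_PFOS replicate 2 was the highest of the 7 libraries and Pectin_PFOS replicate 1 the lowest. Des (desmin, an intermediate filament of muscle) and Myl9 (the regulatory myosin light chain) had log2 fold changes of -1.94 (SE 0.58) and -1.71 (SE 0.41), with adjusted p = 0.109 and 0.0731. The median was -1.47 without Pectin_PFOS replicate 1, -1.80 without Pectin_PFOS replicates 3 and 4 and -1.19 without Inulin_PFOS replicate 2. In these fits 13, 12 and 6 of the 13 genes were lower at an unadjusted p under 0.05. Over all genes 1302 of 15762, 1734 of 16032 and 1282 of 16054 were lower at that p. In bulk tissue, fewer cells of a type and less RNA per cell cannot be told apart.

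Fibroblast markers showed the same order of the groups. All 13 had a negative log2 fold change, with a median of -1.27, and 9 of 13 had every Pectin_PFOS library below every Inulin_PFOS library (11.4% of all genes). Decorin (Dcn), a proteoglycan that binds collagen, had 68.1, 71.3, 75.6 and 43.1 CPM in Pectin_PFOS and 123, 190.3 and 236 CPM in Inulin_PFOS, a log2 fold change of -1.5 (SE 0.43). Vimentin (Vim), the intermediate filament of mesenchymal cells, had 29, 42.1, 42.1 and 40.2 CPM in Pectin_PFOS and 51.4, 94.2 and 76.9 CPM in Inulin_PFOS, a log2 fold change of -0.95 (SE 0.31). Postn (periostin), Islr and Pdpn (podoplanin), picked after their values were seen, had log2 fold changes of -1.47, -1.27 and -1.38 with no overlap. Of the 21 genes of collagen and matrix, 18 were negative and 11 had every Pectin_PFOS library below every Inulin_PFOS library (11.4% of all genes), with a median of -1.01. Fn1 (fibronectin) had 11.5, 49.8, 40.3 and 60.6 CPM in Pectin_PFOS and 84.2, 149.8 and 103 CPM in Inulin_PFOS, and Col3a1 (the chain of type III collagen) had 15.7, 46.2, 47.8 and 51.4 CPM in Pectin_PFOS and 87.2, 107 and 126 CPM in Inulin_PFOS. Their log2 fold changes were -1.47 (SE 0.51) and -1.41 (SE 0.40), and those of Sparc, a collagen-binding protein, and Lox, the lysyl oxidase that cross-links collagen, were -1.29 (SE 0.32) and -1.93 (SE 0.62). Without Pectin_PFOS replicate 1, the library with the lowest Fn1 and Col3a1, the median of the matrix list was -0.70 and that of the fibroblast list -1.10, and without replicates 3 and 4 the matrix median was -1.71.

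**Figure D1:**
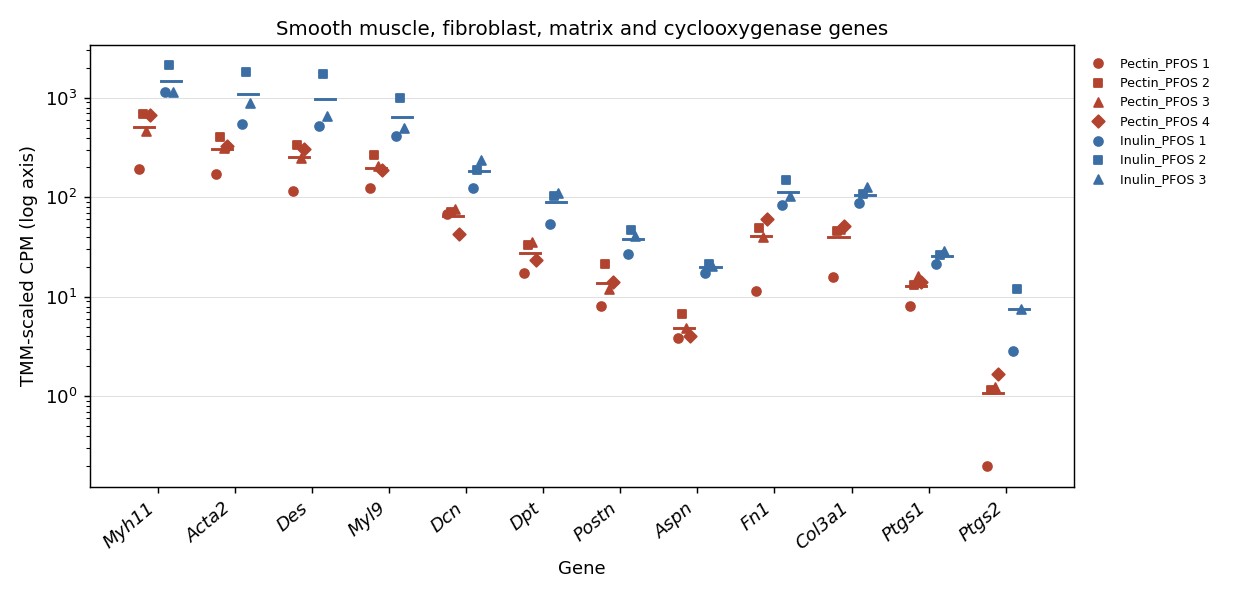
TMM-scaled CPM on a log axis for 12 genes of smooth muscle, fibroblasts, matrix and prostaglandin synthesis in each library, with a symbol per replicate and a bar at the group mean. All 4 Pectin_PFOS points lie below all 3 Inulin_PFOS points in every gene, and Pectin_PFOS replicate 1 is lowest in Myh11 (191 CPM) and Col3a1 (15.7 CPM).

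Other cell types of the wall differed less clearly. All 15 enteric nerve and glia genes had a negative log2 fold change, with a median of -0.81, but 0 of 15 were without overlap, and the median was -0.19 without Inulin_PFOS replicate 2. Of 16 myeloid genes 15 were negative, with a median of -0.77 and 3 without overlap (11.4% of all genes lay below). Lyz2, a lysozyme of macrophages, had 23.6, 127, 67.1 and 69 CPM in Pectin_PFOS and 95.3, 130.1 and 189 CPM in Inulin_PFOS, and C1qa and C1qb, complement subunits of resident macrophages, had log2 fold changes of -1.10 (SE 0.40) and -1.14 (SE 0.41). All 12 B cell genes were negative (median -0.75), with 1 below without overlap (11.4% of all genes) and 0 at an unadjusted p under 0.05. T and cytotoxic cell genes went the other way, with 15 of 20 positive and a median of 0.40. None of these 20 was without overlap or under an unadjusted p of 0.05. Without Pectin_PFOS replicate 1 their median was 0.58, with 7 of 20 above without overlap, beside 11.6% of all genes. The 12 plasma cell genes had a median of -0.37, and of -0.16 without Pectin_PFOS replicate 1. Igha, the heavy chain of IgA, had 199.7, 1081, 1015 and 851 CPM in Pectin_PFOS and 1211, 634 and 1154 CPM in Inulin_PFOS, so that only replicate 1 of Pectin_PFOS fell outside the Inulin_PFOS range. Jchain, which joins IgA into dimers, had 47.9, 328, 178 and 192 CPM in Pectin_PFOS and 736, 461 and 820.4 CPM in Inulin_PFOS, without overlap, a log2 fold change of -1.85 (SE 0.75) with adjusted p = 0.22. The 7 adipocyte genes had a median of -1.12, none of them under an unadjusted p of 0.05. The 10 endothelial genes had a median of 0.35 with 0 without overlap, and this rests on Pectin_PFOS replicates 3 and 4: without them the median was -1.74, with 1 of 10 positive and 9 of 10 below without overlap, beside 22% of all genes.

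Genes for the digestion and uptake of sugars had the highest median log2 fold change of the 58 lists, 1.39, in Pectin_PFOS over Inulin_PFOS. Disaccharidases on the brush border release glucose, galactose and fructose, SGLT1 (Slc5a1) and GLUT5 (Slc2a5) bring them into the enterocyte, GLUT2 (Slc2a2) lets them out, and ketohexokinase (Khk) and triokinase (Tkfc) break fructose down. Promoters of 4 of these genes are shown because their list was higher as a group and they hold motifs counted here. Each is the 250 bases before the start of the gene in RefSeq on GRCm38.p6, 5′ to 3′ on the strand of the gene. Capitals mark the E-box CACGTG, the core bound by ChREBP and USF factors, or the core GTTAAT of the HNF1 site, which reads ATTAAC where it lies on the opposite strand.
Slc5a1 (chr5:33103969-33104218, plus strand): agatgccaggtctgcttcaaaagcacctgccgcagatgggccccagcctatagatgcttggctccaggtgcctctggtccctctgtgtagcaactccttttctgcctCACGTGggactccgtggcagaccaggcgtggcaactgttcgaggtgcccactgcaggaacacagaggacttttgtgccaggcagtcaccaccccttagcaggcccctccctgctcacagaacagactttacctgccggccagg
Mgam (chr6:40628581-40628830, plus strand): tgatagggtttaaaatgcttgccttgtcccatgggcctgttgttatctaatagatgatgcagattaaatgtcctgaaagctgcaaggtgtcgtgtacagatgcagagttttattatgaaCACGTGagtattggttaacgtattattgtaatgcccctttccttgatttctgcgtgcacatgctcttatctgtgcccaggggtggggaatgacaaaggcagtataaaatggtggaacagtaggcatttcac
Khk (chr5:30921309-30921558, plus strand): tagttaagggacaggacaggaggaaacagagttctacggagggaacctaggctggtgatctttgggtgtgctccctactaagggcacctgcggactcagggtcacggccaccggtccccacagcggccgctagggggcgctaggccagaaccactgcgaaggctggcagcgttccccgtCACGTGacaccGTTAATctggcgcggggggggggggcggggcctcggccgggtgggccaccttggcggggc
Sis (chr3:72967864-72968113, minus strand): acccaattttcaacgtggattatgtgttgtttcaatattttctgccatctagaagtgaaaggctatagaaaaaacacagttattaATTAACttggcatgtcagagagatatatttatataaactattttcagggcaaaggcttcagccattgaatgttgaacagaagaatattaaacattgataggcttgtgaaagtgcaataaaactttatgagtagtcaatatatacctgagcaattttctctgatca

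Counted from the gene's start in RefSeq, the CACGTG begins at -143 in Slc5a1, -131 in Mgam and -71 in Khk, and GTTAAT at -60 in Khk and -165 in Sis. The deposited annotation starts Khk at 30921431, inside the window shown, so by that annotation both Khk motifs lie within the gene. Of the 17 genes of the list, 16 had a window. CACGTG was found on either strand in 3 of 16 (18.8%), against 6.05% of 27025 promoters, and GTTAAT in 4 of 16 (25%), against 6.52%. TTTAT, the core of the CDX site, was found in 37.5% of the list and 38.1% of all promoters, and TATAAA in 18.8% and 13%. The CArG box of smooth muscle promoters was found in 1 of the 10 muscle genes with a window (Myl9) and in 1.4% of all promoters. These motifs, and the promoters shown, were chosen after the values were seen, and a match is a description of the letters only.

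All 17 sugar genes were tested and all had a positive log2 fold change, with a median of 1.39 and a range of 0.26 to 5.15. None was called, and 12 had an unadjusted p under 0.05 (5.72% of all genes were higher at this p). In 7 of 17 every Pectin_PFOS library was above every Inulin_PFOS library (background 8.36%). SGLT1 (Slc5a1) had 3042, 1726, 3806 and 2912 CPM in Pectin_PFOS and 1409, 1252 and 1148 CPM in Inulin_PFOS, a log2 fold change of 1.18 (SE 0.31) with adjusted p = 0.0834. Replicate 2 was its lowest Pectin_PFOS library and replicate 3 the highest, with no overlap between the groups. Mgam, maltase-glucoamylase, had 1816, 1556, 4182 and 3449 CPM in Pectin_PFOS and 1285, 1429 and 1209.6 CPM in Inulin_PFOS, and Sis, sucrase-isomaltase, had 2152, 1152, 3656 and 2605 CPM in Pectin_PFOS and 1065, 823 and 1124 CPM in Inulin_PFOS. Neither overlapped, with log2 fold changes of 1.07 (SE 0.40) and 1.25 (SE 0.60).

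The genes of fructose uptake and breakdown covered a wider range. Slc2a5, the fructose transporter, had 343, 84.8, 492 and 443 CPM in Pectin_PFOS and 41.7, 72.4 and 81.6 CPM in Inulin_PFOS, a log2 fold change of 2.38 (SE 0.66) with adjusted p = 0.0951. Tkfc had 581, 267, 899 and 697 CPM in Pectin_PFOS and 165, 183 and 236 CPM in Inulin_PFOS, a log2 fold change of 1.65 (SE 0.40), and Pklr, a pyruvate kinase, had 0.93 (SE 0.24). Each of these was without overlap, Slc2a5 by a narrow margin in replicate 2. Khk, the kinase that begins fructose breakdown, overlapped, with 313, 171, 579 and 408 CPM in Pectin_PFOS and 182, 219.7 and 225 CPM in Inulin_PFOS. Fbp1 and G6pc, enzymes of glucose production, had log2 fold changes of 3.17 (SE 0.79) and 1.97 (SE 0.76) and overlapped through Pectin_PFOS replicate 2, and so did Mlxipl, the gene of the sugar-sensing factor ChREBP, at 1.40 (SE 0.49).

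Several members of this list moved with the markers of position. Slc2a2 had 15, 2.46, 120.4 and 63.5 CPM in Pectin_PFOS and 0.736, 2.32 and 3.68 CPM in Inulin_PFOS, and lactase (Lct) had 0.725, 0.527, 99 and 27.7 CPM in Pectin_PFOS and 0.340, 0.607 and 1.73 CPM in Inulin_PFOS. Both were highest in Pectin_PFOS replicates 3 and 4, the libraries with high Gata4 and low Hoxb9, and Lct in replicates 1 and 2 lay inside the Inulin_PFOS range. Without replicates 3 and 4 the median of the list was 0.90, with 16 of 17 positive and 6 higher at an unadjusted p under 0.05. Over all genes 813 of 16032 were higher at that p in the same fit. Lct was then lower in Pectin_PFOS with -0.53. Slc5a1, Tkfc and Slc2a5 were above Inulin_PFOS in replicates 1 and 2 as well, as their values show. Over the whole list of upper small intestinal markers, 7 of 13 were positive, the median was 0.18 and the summed level was 2335 to 3779.9 CPM in Pectin_PFOS and 2272 to 3206 CPM in Inulin_PFOS. How far position along the gut enters the rest of the difference was not tested.

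**Figure D2:**
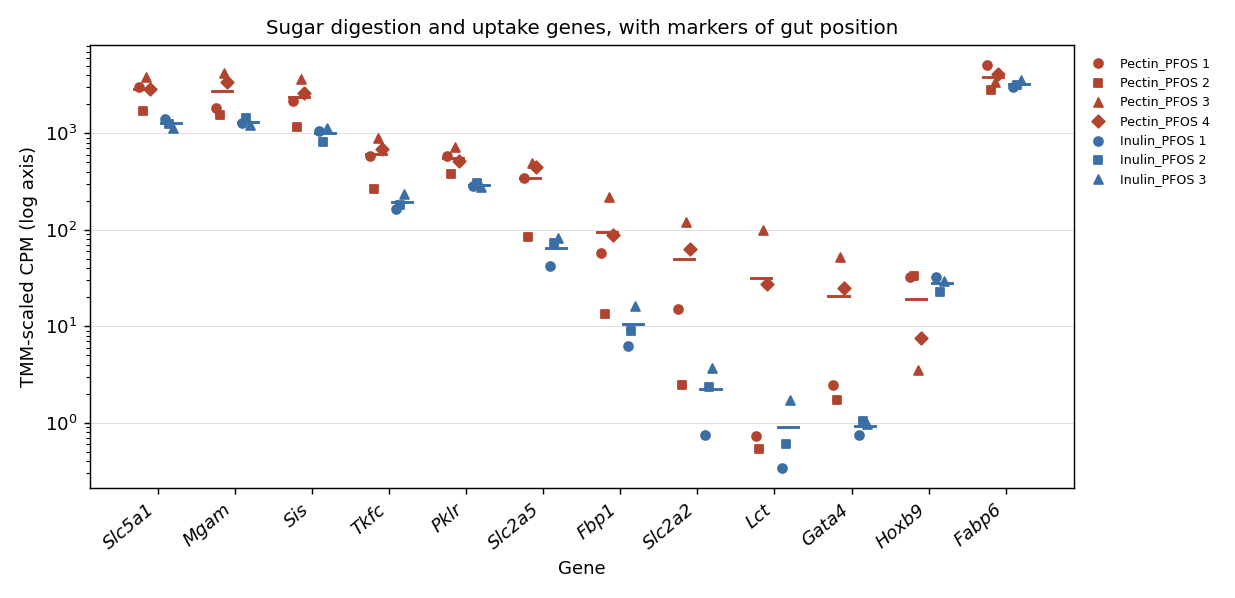
TMM-scaled CPM on a log axis for 9 sugar genes and the position markers Gata4, Hoxb9 and Fabp6 in each library, with a symbol per replicate and a bar at the group mean. Slc5a1, Mgam, Sis, Tkfc, Pklr and Slc2a5 do not overlap, while Slc2a2, Lct and Gata4 are highest in Pectin_PFOS replicates 3 and 4 (triangles and diamonds).

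Other genes of the absorptive surface were also higher in Pectin_PFOS, by less. The summed smooth muscle level, 1240.0 to 3179.8 CPM in Pectin_PFOS and 4568 to 12124 CPM in Inulin_PFOS, moved with these lists in the opposite direction, and the part of the amount of muscle in each piece of tissue was not tested. All 11 brush border peptidases had a positive log2 fold change, with a median of 0.60 and 6 of 11 without overlap (8.36% of all genes lay above). Aminopeptidase N (Anpep), which removes terminal residues from peptides, had 38291, 19576, 16077 and 15251 CPM in Pectin_PFOS and 14526, 15873 and 13815 CPM in Inulin_PFOS, a log2 fold change of 0.60 (SE 0.38), and overlapped. Naaladl1, a dipeptidase-like enzyme of the ileum, had 7212, 3992, 3548 and 3625 CPM in Pectin_PFOS and 2761, 3116 and 3192 CPM in Inulin_PFOS, and Xpnpep2, an aminopeptidase for proline-containing peptides, had a log2 fold change of 0.77 (SE 0.27). Ace, the angiotensin-converting enzyme, had 1289, 935, 1089 and 938 CPM in Pectin_PFOS and 612, 730.3 and 493 CPM in Inulin_PFOS, without overlap. Replicate 1 was far above its fellow libraries in Anpep and Naaladl1. At an unadjusted p under 0.05, 3 of the 11 were higher (5.72% of all genes). Without replicate 1 the median of the list was 0.30, with 1 higher at that p, beside 675 of 15762 genes. Of 21 enterocyte markers 20 were positive and 10 without overlap (8.36% of all genes lay above), with a median of 0.67. Vil1 (villin, which bundles actin in microvilli) had 5626, 4349.7, 4773 and 4144 CPM in Pectin_PFOS and 3165, 3159 and 2774 CPM in Inulin_PFOS.

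Transport genes followed. Of 14 amino acid and peptide transporters 12 were positive and 7 without overlap (8.36% of all genes lay above), with a median of 0.49. Slc15a1, the peptide transporter PEPT1, had 926, 426, 689 and 484 CPM in Pectin_PFOS and 314, 399 and 356 CPM in Inulin_PFOS, a log2 fold change of 0.83 (SE 0.37). Slc36a1 and Slc7a8, amino acid carriers, had 1.36 (SE 0.42) and 1.20 (SE 0.41), and Slc36a1 was highest in replicates 3 and 4. Of 22 genes of fat absorption 18 were positive and 5 without overlap (8.36% of all genes lay above), with a median of 0.52. Abcg8, which with Abcg5 pumps sterols back into the lumen, had 535, 219, 481 and 353 CPM in Pectin_PFOS and 168, 206 and 161 CPM in Inulin_PFOS, a log2 fold change of 1.15 (SE 0.29) with adjusted p = 0.0734. Abcg5 had 0.96 (SE 0.29) and overlapped through replicate 2, and Mttp, which loads lipid onto chylomicrons, had 0.88 (SE 0.32) without overlap. Slc6a4, the serotonin transporter, named after its values were seen, had 98.2, 61.2, 84.5 and 66.2 CPM in Pectin_PFOS and 37.6, 39.3 and 35.2 CPM in Inulin_PFOS, a log2 fold change of 1.05 (SE 0.28).

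Targets of PPARα and genes of fat oxidation leaned the same way. Of 29 tested, 25 were positive and 11 without overlap (8.36% of all genes lay above), with a median of 0.46. Hadha, a subunit of the mitochondrial enzyme complex that oxidises long-chain fatty acids, had 417, 307, 344 and 286 CPM in Pectin_PFOS and 247, 221 and 247 CPM in Inulin_PFOS, a log2 fold change of 0.51 (SE 0.22). Vnn1, a pantetheinase, had 625, 282, 452 and 333 CPM in Pectin_PFOS and 208, 219 and 209 CPM in Inulin_PFOS. Both were without overlap. Acaa1b, a peroxisomal thiolase, and Angptl4, a secreted inhibitor of lipoprotein lipase, had log2 fold changes of 1.97 (SE 0.60) and 1.20 (SE 0.47) and overlapped, and Angptl4 in replicate 1 was 226 CPM. At an unadjusted p under 0.05, 14 of the 29 were higher and 0 lower (5.72% and 10.6% of all genes). Without replicate 1 the median of the list was 0.29, with 3 higher and 1 lower at that p. Over all genes 675 of 15762 were then higher and 1302 lower.

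Of 19 genes of the xenobiotic response 14 were positive, with a median of 0.80 but only 1 above and 2 below without overlap (8.36% and 11.4% of all genes). Abcc2, an efflux pump for conjugates, had 161, 57.1, 142 and 141 CPM in Pectin_PFOS and 43, 47 and 36.8 CPM in Inulin_PFOS, a log2 fold change of 1.56 (SE 0.50) with adjusted p = 0.123. Cyp3a13 had 1322, 733, 973 and 637 CPM in Pectin_PFOS and 481, 485 and 609 CPM in Inulin_PFOS. Abcc2 and Cyp3a13 both lay above without overlap, whereas the list counts only 1 such gene, so they are not both its members. Cyp3a11 and Cyp2c55, cytochromes P450 of drug metabolism, had 185, 14.8, 179 and 35.4 CPM and 178, 11.5, 29.98 and 9.03 CPM in Pectin_PFOS, against 16, 13.3 and 32.7 CPM and 12.2, 4.14 and 14.7 CPM in Inulin_PFOS. Replicate 1 was highest in both, with replicate 3 close to it in Cyp3a11. Without replicate 1 the median of the list was 0.32 and the log2 fold change of Cyp2c55 was 0.70. Abcb1a, the P-glycoprotein pump, was 1305 CPM in replicate 1 and had a log2 fold change of 1.13 (SE 0.50) with it and 0.37 without it.

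**Figure D3:**
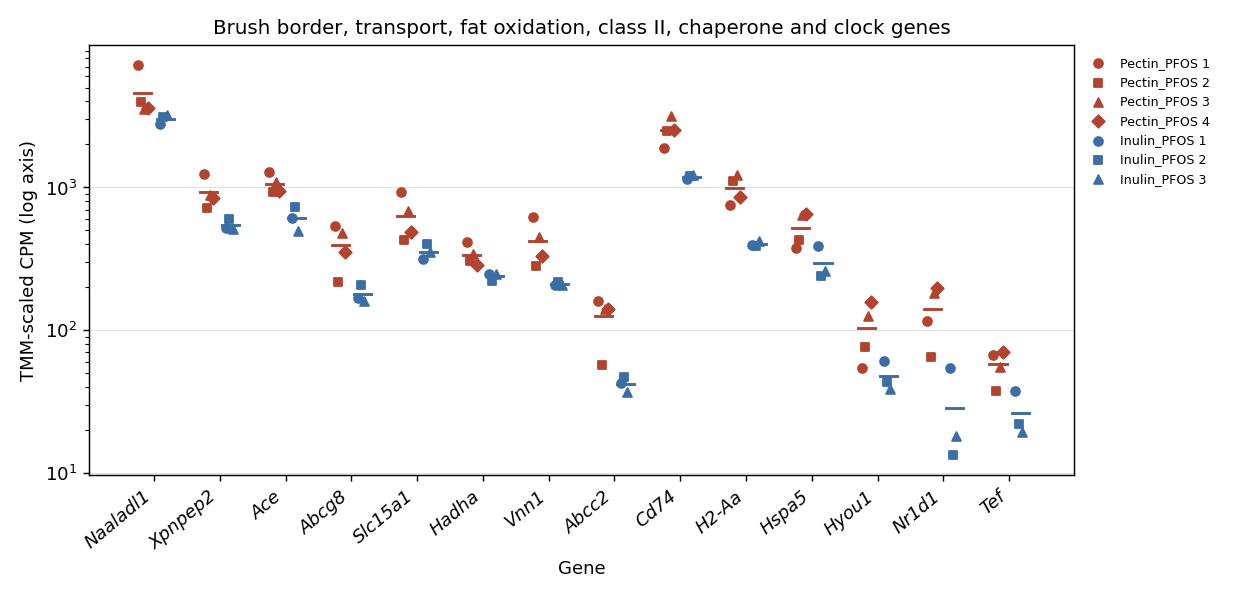
TMM-scaled CPM on a log axis for 14 genes of the brush border, transport, fat oxidation, MHC class II, chaperones and clock in each library, with a symbol per replicate and a bar at the group mean. All 4 Pectin_PFOS points lie above all 3 Inulin_PFOS points in every gene except Hspa5 and Hyou1, and for Cd74 the Inulin_PFOS points lie between 1138 and 1219 CPM.

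Antigen presentation genes of MHC class II, which display peptides to helper T cells, were mostly higher in Pectin_PFOS. Cd74, the invariant chain, had 1898, 2493, 3179 and 2525 CPM in Pectin_PFOS and 1138, 1194 and 1219 CPM in Inulin_PFOS, and H2-Aa, a class II alpha chain, had 754, 1117, 1231 and 852 CPM in Pectin_PFOS and 393, 389.8 and 419.9 CPM in Inulin_PFOS. Every Pectin_PFOS library was above every Inulin_PFOS library for both, and for H2-Ab1 and H2-Eb1 as well. The log2 fold changes of Cd74 and H2-Aa were 1.09 (SE 0.91) and 1.30 (SE 0.94) with adjusted p = 0.587 and 0.519, where the error comes from all 22 libraries, and on the 7 libraries alone the SE was 0.22 and 0.21 with adjusted p = 0.0743 and 0.0735. Of the 10 class II genes 7 were positive and 5 without overlap (8.36% of all genes lay above), with a median of 0.79. The 12 genes of B cells, which also carry class II, had a median of -0.75, and 0 had an unadjusted p under 0.05. Which cells the class II difference comes from was not tested.

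Of 27 interferon-stimulated genes 24 were positive, with a median of 0.49. Without overlap, 1 lay above and 1 below (8.36% and 11.4% of all genes), and without Inulin_PFOS replicate 2 the median was 0.80 and 14 genes lay above, beside 13.4% of all genes. Oasl2, an antiviral protein of the oligoadenylate synthetase family, had 248, 182, 233 and 119 CPM in Pectin_PFOS and 85.1, 163 and 76.8 CPM in Inulin_PFOS, and Ddx58, the RNA sensor RIG-I, had a log2 fold change of 0.85 (SE 0.21) without overlap. Ifi27l2a went the other way, with 6.85, 5.44, 4.00 and 7.51 CPM in Pectin_PFOS and 20.2, 18.4 and 21.2 CPM in Inulin_PFOS, a log2 fold change of -1.75 (SE 0.57). The 19 genes induced by interferon gamma had a median of -0.24. Among defence genes, Reg3g, an antibacterial lectin, had 28004, 27989.5, 14139 and 15804 CPM in Pectin_PFOS and 26272, 24609 and 22333 CPM in Inulin_PFOS and overlapped. Duox2, an oxidase that makes hydrogen peroxide at the epithelial surface, had 425, 719.7, 653 and 535 CPM in Pectin_PFOS and 666, 539 and 445 CPM in Inulin_PFOS and overlapped as well. Nos2, the inducible nitric oxide synthase, had 542, 999, 1802 and 691 CPM in Pectin_PFOS and 508, 691 and 527 CPM in Inulin_PFOS. Pigr, the receptor that carries IgA across the epithelium, had 2354, 3038, 3108 and 3131 CPM in Pectin_PFOS and 2724, 1739.6 and 1338 CPM in Inulin_PFOS, and both genes overlapped. Saa1, an acute phase protein, was below Inulin_PFOS in all Pectin_PFOS libraries, with 2103, 2727, 897 and 1504 CPM against 3617, 3109.9 and 3713 CPM. Retnlb, an antibacterial product of goblet cells, had 0.527, 1.11, 0.169 and 0.261 CPM in Pectin_PFOS and 16.8, 2.32 and 0.867 CPM in Inulin_PFOS and was highest in Inulin_PFOS replicate 1.

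Chaperones of the endoplasmic reticulum, which fold secreted and membrane proteins, were higher in Pectin_PFOS in 19 of 20 genes, with a median of 0.56, 11 at an unadjusted p under 0.05 and 5 without overlap (5.72% and 8.36% of all genes). Hspa5, the chaperone BiP, had 377, 429.8, 638 and 647 CPM in Pectin_PFOS and 387, 241 and 261 CPM in Inulin_PFOS, a log2 fold change of 0.82 (SE 0.26). Hsp90b1 (GRP94) had 342, 360.5, 535 and 587 CPM in Pectin_PFOS and 408, 256 and 241 CPM in Inulin_PFOS, and Calr (calreticulin) and Hyou1 had log2 fold changes of 0.60 (SE 0.29) and 1.13 (SE 0.36). For Hspa5 and Hyou1 the overlap came from replicate 1, whose level was within the Inulin_PFOS range, and without replicates 3 and 4 the median of the list was 0.35. Of 18 clock genes 15 were positive, with a median of 0.60 and 2 without overlap, a share near the 8.36% of all genes. Nr1d1, the repressor REV-ERBα, had 117, 65.2, 182 and 197 CPM in Pectin_PFOS and 54.6, 13.4 and 18.4 CPM in Inulin_PFOS, a log2 fold change of 2.29 (SE 0.91) with adjusted p = 0.215, and Tef, a clock-controlled transcription factor, had 1.14 (SE 0.37). Per2, another repressor of the clock, had 10.01, 12.6, 13.2 and 15 CPM in Pectin_PFOS and 6.80, 11 and 6.50 CPM in Inulin_PFOS and overlapped. Without replicate 1 of Pectin_PFOS the median of the clock list was 0.39. The hour of collection is not given in the sources used here.

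Several lists lay near the median of all genes. The 12 Paneth cell genes had a median of 0.01, the 16 goblet cell genes 0.12, the 16 stem cell and Wnt genes 0.03, the 25 cholesterol synthesis genes -0.05, the 29 ATF4 targets -0.02 and the 22 NRF2 and glutathione genes 0.01. The Paneth, stem cell and NRF2 medians change sign with the scaling. Without Pectin_PFOS replicates 3 and 4 the medians were -0.55 for Paneth cells, -0.10 for stem cells and Wnt, 0.23 for cholesterol synthesis and 0.21 for NRF2 and glutathione. The 25 proliferation genes had a median of 0.33, with 22 positive and 0 at an unadjusted p under 0.05. Of them 1 lay above without overlap (8.36% of all genes). Their median was 0.51 without Pectin_PFOS replicate 1, with 11 of 25 above without overlap beside 11.6% of all genes, and 0.05 without replicates 3 and 4. Lyz1, the Paneth cell lysozyme, had 624, 727, 1496 and 766 CPM in Pectin_PFOS and 916, 589 and 688 CPM in Inulin_PFOS and overlapped, and Defa24, an alpha-defensin of a family with near-identical copies, had 625, 687, 2109.8 and 1133 CPM in Pectin_PFOS and 2057, 867 and 1320.4 CPM in Inulin_PFOS. Zg16, a lectin of goblet cell mucus, had 3796, 2912, 3421 and 3135 CPM in Pectin_PFOS and 3038, 3108 and 5749.8 CPM in Inulin_PFOS, with Inulin_PFOS replicate 3 highest.

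Short transcripts had a lower median in Pectin_PFOS, and several of the 20 genes are short. Genes were ranked by their longest transcript in GENCODE M21 and cut into 10 bins, and in the shortest bin (108 to 1178 bases, 1571 genes) the median log2 fold change was -0.25, with 15 genes above and 280 below without overlap (0.955% and 17.8%). In the longest bin it was 0.09, with 173 above and 174 below. Znhit3, Tmem256, Rpph1 and Myeov2 fall in the shortest bin, at 998, 953, 319 and 653 bases. So do the interferon-stimulated gene Ifi27l2a, at 463 bases, and Nenf, a secreted protein, at 742 bases. Nenf had 4.41, 6.73, 7.89 and 7.62 CPM in Pectin_PFOS and 11.1, 17.4 and 18.5 CPM in Inulin_PFOS. Atp5e, the epsilon subunit of ATP synthase, had 108, 111, 119 and 123 CPM in Pectin_PFOS and 207, 233 and 541 CPM in Inulin_PFOS, and its longest transcript has 1697 bases. The median deviation of the shortest bin from the mean of all 22 libraries was -0.19, -0.17, 0.02 and -0.11 in Pectin_PFOS and 0.10, 0.04 and 0.37 in Inulin_PFOS, so that Inulin_PFOS replicate 3 was highest and the groups did not overlap. All 13 mitochondrially encoded genes were negative too, with a median of -0.88 and 5 without overlap (11.4% of all genes lay below), and the 30 ribosomal protein genes had a median of -0.19. The part of transcript length in these differences was not tested.

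**Figure D4:**
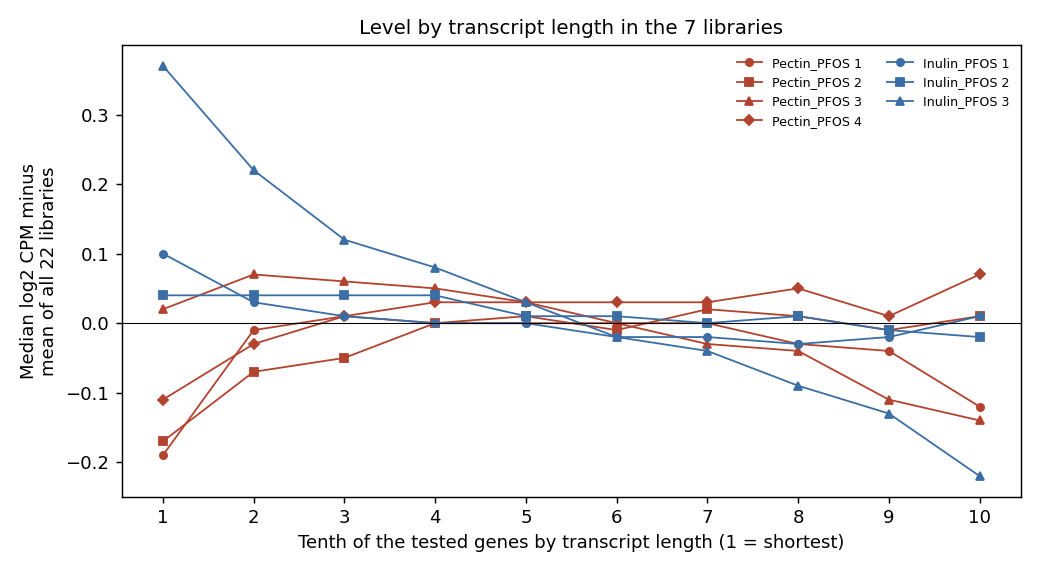
Median deviation of log2 CPM from the mean of all 22 libraries, for the tested genes in 10 bins of transcript length, as a line per library of Pectin_PFOS and Inulin_PFOS. In the shortest bin the Pectin_PFOS lines run from -0.19 to 0.02 and the Inulin_PFOS lines from 0.04 to 0.37.

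The same fibres were compared in mice without PFOS, where more genes passed. Between Pectin and Inulin, 964 genes rose (6.12%) and 1789 fell (11.3%) of 15763 (17.5% called, edgeR), in libraries that the exposed comparison does not use. With library totals in place of TMM factors the split was 1087 higher and 856 lower, as this scaling moved the median of all genes to 0.16, against 0.04. The count was 357 without Inulin replicate 1, 1409 without Inulin replicate 2, and 1651 and 1471 without Pectin replicates 1 and 2. The 5 genes with the smallest p were Gm7694, Bmp1, Cyp2d26, Mcpt2 and Fam160b2, with log2 fold changes of -1.70, -2.78, -3.25, 5.66 and -1.41 without PFOS, and 0.56, 0.20, 0.95, -0.38 and 0.19 with PFOS. Mcpt2 is a protease of mucosal mast cells. Of the 2753 genes called without PFOS, 2280 (82.8%) had the opposite sign under PFOS, against 70.5% of all genes. Across genes the log2 fold changes of the comparisons had a Pearson r of -0.356 and a Spearman rho of -0.475, over genes that are not independent. The trend with transcript length turned as well. The shortest bin had a median of 0.42 without PFOS and -0.25 with it, and the longest bin -0.1 and 0.09. The part of transcript length in the opposite signs was not tested.

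The difference between the diet contrasts was tested directly. The Pectin against Inulin contrast with PFOS, minus the same contrast without PFOS, was positive for 2071 genes (13.1%) and negative for 1936 (12.3%) (25.4% called, edgeR, adjusted p under 0.05), and with library totals for 987 and 2141, where the median of all genes moved to -0.22, against -0.05. Without Inulin replicate 1 it was called for 1353 genes, and without Inulin_PFOS replicate 3 for 2172 genes. The median difference was -0.72 in the shortest bin of transcript length and 0.19 in the longest, and the part of length was not tested. Gm7694, Cyp2d26, Btnl2, Vps33b and Cry2 had the smallest p, with log2 differences of 2.26, 4.19, 2.18, 1.89 and 2.65. Cry2 is a repressor of the clock, and Cyp2d26 a cytochrome P450.

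Smooth muscle was among the lists with the most genes in this test. Of its 13 genes 12 had a negative difference past the threshold and 0 a positive one (12.3% and 13.1% of all genes). Myh11 averaged 506 ± 232 CPM in Pectin_PFOS and 1477 ± 559 CPM in Inulin_PFOS, and 986 ± 375 CPM in Pectin and 576 ± 366 CPM in Inulin (SD, n = 4, 3, 4 and 3), a difference of -2.32 (SE 0.69) with adjusted p = 0.0216. The list's median was -1.65 with PFOS and 0.66 without it, where 0 of 13 genes were called (17.5% of all genes). Fibroblast genes had 10 of 13 negative differences, collagen and matrix genes 11 of 21 with 1 positive, and myeloid genes 12 of 16. Over all genes 12.3% were negative and 13.1% positive. Ptgs2 had a difference of -3.97 (SE 0.75) and Ptgs1 of -1.69 (SE 0.29), and without PFOS Ptgs1 rose in Pectin by 0.71 (adjusted p = 0.0251).

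Sugar genes had 10 of 17 positive differences and 0 negative (13.1% and 12.3% of all genes). The list medians were 1.39 with PFOS and -0.82 without it. Slc5a1 averaged 2872 ± 859.5 CPM in Pectin_PFOS and 1269 ± 132 CPM in Inulin_PFOS, and 884 ± 150.1 CPM in Pectin and 1319.7 ± 532 CPM in Inulin (SD, n = 4, 3, 4 and 3), a difference of 1.76 (SE 0.43) with adjusted p = 0.0103. Slc2a5 and Tkfc had differences of 3.51 (SE 0.89) and 2.18 (SE 0.54), with adjusted p = 0.0117 and 0.0107, whereas that of Mgam, 1.24 (SE 0.55), did not pass (adjusted p = 0.0996). Brush border peptidases had 7 of 11 positive differences (13.1% of all genes), with medians of 0.60 and -0.98. Without PFOS 6 of these genes fell in Pectin (11.3% of all genes). Paneth cell genes had 9 of 12 negative differences (12.3% of all genes). Without PFOS all 12 rose in Pectin (6.12% of all genes), with a median of 2.29, and their median under PFOS was 0.01. For MHC class II and interferon-stimulated genes the difference passed for 0 of 10 and for 3 of 27 genes (25.4% of all genes). Their medians without PFOS were 0.74 and 0.44.

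**Figure D5:**
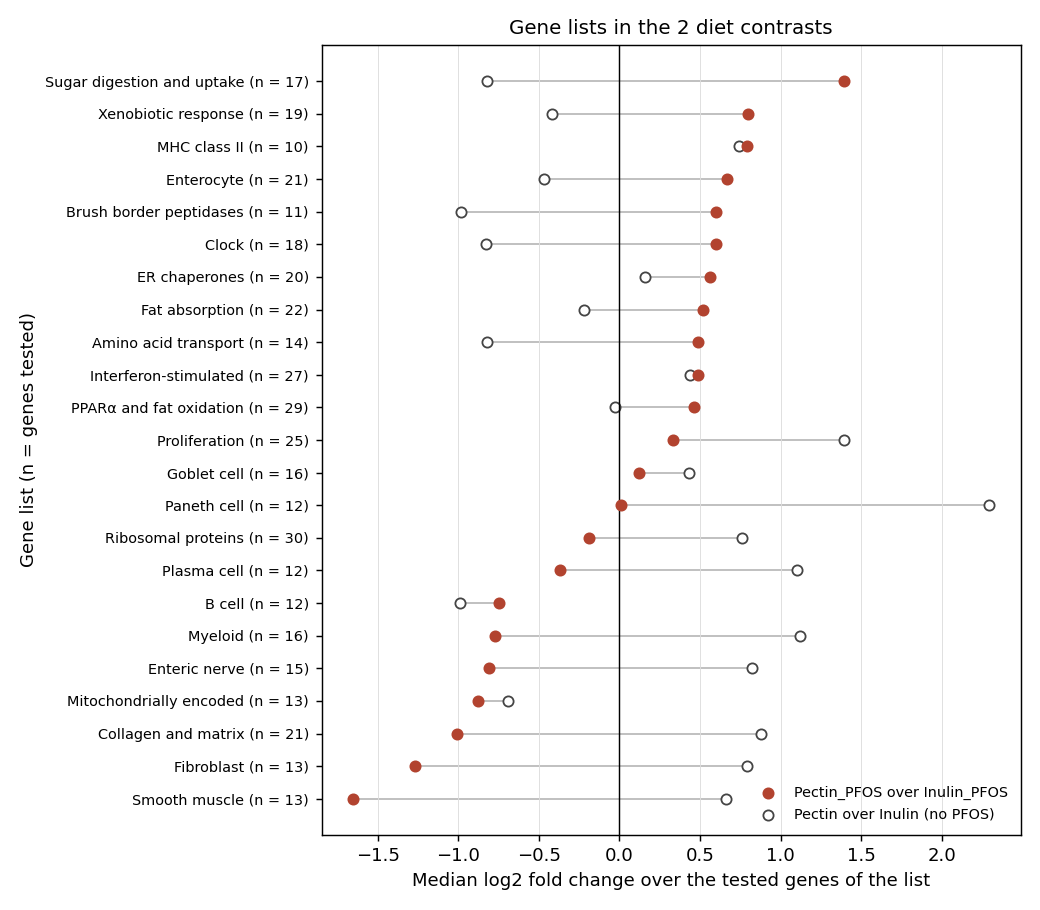
Median log2 fold change over the tested genes of 23 lists for Pectin_PFOS over Inulin_PFOS (filled) and Pectin over Inulin without PFOS (open). Smooth muscle lies at -1.65 and 0.66, sugar digestion and uptake at 1.39 and -0.82, and MHC class II at 0.79 and 0.74.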

How the data were processed

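RNA from intestinal tissue was sequenced on the DNBSEQ platform with a stranded protocol, per the labels' protocols. The authors deposited expected counts and TPM per gene for each library, and HISAT, Bowtie2 and GRCm39 appear in the submitters' processing notes without versions or roles. Of 46091 genes shared with GENCODE M21, which is on GRCm38, 38946 had the same start and end, so the files' coordinates are not printed as GRCm39. The counting program is not given in the sources used here. Expected counts were rounded to whole numbers, because count models need them. Groups and comparisons were those of the sample names.

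All 22 libraries were fitted in 1 model with edgeR 4.0.16 (R 4.3.3): TMM scaling, filterByExpr, robust quasi-likelihood test, Benjamini-Hochberg adjustment and a threshold of 0.05. The shared estimate of the spread leaves 16 residual degrees of freedom, and the common biological coefficient of variation was 31.9%. Alternatives were other scalings and filters, DESeq2 1.42.0, limma 3.58.1 on TPM or with voom sample weights, replicate blocks, and leaving out libraries. The fit was also run on simulated counts with known changes, and the outcome is not reported here. Single values were compared with exact permutation tests.

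No gene passed, so the named genes are the 20 with the smallest p and, in each list described, up to 3 members of highest mean CPM. Named besides these, after their values were seen, were Postn, Islr, Pdpn, Slc6a4, Nenf, Atp5e, other members of the sugar, transport, xenobiotic, interferon, defence, chaperone and clock lists, and position markers. The members and the 58 gene lists were chosen with earlier results of these data known, and 965 of 967 list entries were found. A few list members enter the counts and medians but are not reported here by name. Promoters came from RefSeq tables on GRCm38.p6. With total counts this alike (17613322 to 20261370 over all libraries), precision is set by 3 and 4 libraries a group more than by depth, except for genes at a few counts.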

Additional observations from a re-analysis of the deposited data

Results flagged for a closer look

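In 9 of 113 sets of 4 Pectin_PFOS values, 1 library lay far from the other 3 by Dixon's criterion, which chance meets in about 1 set in 20. Pectin_PFOS replicate 1 accounts for 8 of them. It was low in St6galnac6 (2.96 CPM), Vim (29 CPM), Col3a1 (15.7 CPM) and Pigr (2354 CPM). It was high in Naaladl1 (7212 CPM), Angptl4 (226 CPM), Abcb1a (1305 CPM) and Cyp2c55 (178 CPM). This library also had the fewest detected genes (12919) and the lowest TMM factor (0.749) of all 22 libraries, and whether these share a cause was not tested. Pectin_PFOS replicate 3 was high in Lyz1 (1496 CPM).

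The diet contrast under PFOS differed from that without PFOS for 28 of 29 genes tested for it here (edgeR, adjusted p under 0.05 over all genes), beside 25.4% of all genes. These genes were chosen by small p in the contrast under PFOS, which is part of the difference, or from the muscle and sugar lists, so their share past the threshold is a description only. The log2 difference was negative for the 19 lower genes with the smallest p: Znhit3 (-1.96), Tmem256 (-2.13), Tmem47 (-2.78), C1qtnf3 (-3.11), Rpph1 (-2.10), Ptgs2 (-3.97), Aspn (-3.09), Acsl6 (-3.37), Clip4 (-2.50), Twsg1 (-1.60), Myeov2 (-1.82), Angptl2 (-2.33), Sspn (-2.31), St6galnac6 (-1.44), Ptgs1 (-1.69), Plac9a (-3.12), Evc (-2.50), Sh3bgr (-2.17) and Dpt (-2.33). It was negative for the muscle genes Myh11 (-2.32), Acta2 (-2.43), Des (-2.43) and Myl9 (-2.40). It was positive for 4933404O12Rik (1.61) and for the sugar genes Slc5a1 (1.76), Tkfc (2.18), Slc2a5 (3.51) and Fbp1 (3.76). The difference of Mgam was 1.24 and did not pass.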

How the results depend on the processing

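The count of 0 calls between Pectin_PFOS and Inulin_PFOS was 0 under 20 of 38 alternatives. It was 8 with library totals or upper quartile scaling, 552 with DESeq2, 6 with the 7 libraries alone, 2 and 6 with limma on log2(TPM + 1) and log2(TPM + 0.1), 4 with limma without a filter and 1251 with voom sample weights. Leaving out 1 library gave 0 to 177. With the 7 libraries alone and the bio rep number as a replicate block it was 192, and with the number in the sample name 448. With the bio rep block the Pectin against Inulin count was 114 and the interaction 4420. Each blocked fit used only the libraries of the groups compared, so these counts mix the block with a smaller set of libraries. Same-numbered libraries correlated at 0.03, -0.09 and 0.04 for bio rep numbers and 0.03, 0.05 and -0.15 for numbers in the names. So few correlations, which were not tested, cannot show whether the numbers mark a shared cage, litter or day. With 1 library left out, Pectin against Inulin ranged from 357 to 3610 and the interaction from 1353 to 4591.

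List medians moved past their spread in limma on log2(TPM + 1), with and without a filter, for fibroblasts (-0.73) and enteric nerve (-0.16). Without Pectin_PFOS replicates 3 and 4, an alternative chosen after seeing the data, they did for collagen and matrix (-1.71) and chaperones (0.35), the endothelial median turned to -1.74, against 0.35, the Paneth median to -0.55, against 0.01, the cholesterol synthesis median to 0.23, against -0.05, and Lct turned to -0.53. Over libraries left out the medians ranged from -1.03 to -0.19 for enteric nerve, 0.30 to 0.74 for brush border, 0.39 to 0.69 for clock and -1.17 to -0.40 for mitochondrially encoded genes. Pairs of a named gene and an alternative numbered 4304 over the exposed contrast and the interaction. Of these, 3981 kept direction and side of the threshold, 297 newly passed, 25 no longer passed and 1 (Lct) turned. The 25 belong to the interaction, since no gene passed the exposed contrast in the main fit. The causes were not tested. Genes at a few counts, such as Ptgs2 in Pectin_PFOS replicate 1, have levels limited by depth.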
